A study of Mus musculus with 16 samples.

Results

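Pomc neurons of the arcuate nucleus were picked out of 16 single-cell libraries of the mouse hypothalamus and preoptic area (hypothalamus-POA). A barcode was kept as a cell when it held over 200 but under 4000 genes and mitochondrial genes gave under 15% of its unique molecular identifiers (UMIs, each counting 1 captured transcript). A cell was taken as a neuron when at least 3 of 8 neuronal genes were detected, and as a Pomc neuron when it also held at least 8 UMIs of Pomc, making up at least 0.4% of its UMIs, and fewer than 5 UMIs of Agrp. By this rule 53 of 55675 kept cells were Pomc neurons, out of 9679 neurons. The levels of Pomc, Agrp and the neuronal genes chose the cells, and their levels in these cells are described without a test. Tests between groups of mice use the share of Pomc neurons and the Pomc level over all neurons, since the rule used neither treatment nor genotype.

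The libraries were made by Drop-seq, in which single cells meet barcoded beads in droplets, with 1 library per mouse. All mice were female, 8 to 10 weeks old at the start, of a strain given as CD-1;129P2 mixed, and received 28 daily subcutaneous injections. Wild-type mice received the vehicle, corn oil with ethanol (3 mice), or tamoxifen at 0.1 mg/kg (5 mice), and Esr1 cKO mice received oil (4 mice) or tamoxifen (4 mice). Tamoxifen is a ligand of estrogen receptors with agonist or antagonist action depending on the tissue. In the Esr1 cKO mice a floxed Esr1 allele, which encodes estrogen receptor alpha, was recombined by a Cre carried on an Nkx2-1 transgene, so deletion is limited to cells with a history of that driver. The wild-type mice were littermates without Cre. The libraries held 2634253 to 8038158 UMIs in all, and 2891 to 32309 UMIs in the Pomc neurons of a library that had any.

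Pomc encodes pro-opiomelanocortin, a prohormone that convertases cut into alpha-melanocyte-stimulating hormone and beta-endorphin. In the arcuate nucleus, Pomc neurons release melanocortins that lower food intake and raise energy expenditure through the receptors Mc3r and Mc4r, while the neighbouring Agrp neurons release an antagonist at the same receptors together with Npy and GABA. Corticotrophs of the pituitary also make Pomc. Cartpt, the precursor of the CART peptides, is a known companion of Pomc in many arcuate Pomc neurons, and Crabp1 encodes a cytosolic retinoic acid-binding protein. In the GRCm38 annotation, Pomc lies on chromosome 12 (3954951 to 3960642, plus strand), Cartpt on chromosome 13 (99898489 to 99901091, minus strand) and Crabp1 on chromosome 9 (54764748 to 54773110, plus strand). All are protein-coding genes.

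Pomc neurons were found in 14 of the 16 libraries. Wild-type oil replicates 1, 2 and 3 held 3, 0 and 0 of them, and wild-type tamoxifen replicates 1 to 5 held 3, 2, 7, 2 and 3. Esr1 cKO oil replicates 1 to 4 held 8, 1, 6 and 1, and Esr1 cKO tamoxifen replicates 1 to 4 held 7, 1, 5 and 4. Thus 20 Pomc neurons came from 6 wild-type libraries and 33 from 8 Esr1 cKO libraries. The wild-type oil group rested on a single library.

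The Pomc neurons were deeper than the rest of the neurons, and the part of the limit on Pomc UMIs per cell in this was not tested. They held a lowest, median and highest total of 476, 3213 and 10034 UMIs, against a median of 1721 in the 9626 other neurons. Their Pomc counts ran from 8 over a median of 43 to 226 UMIs, or 0.453%, 1.49% and 4.04% of the cell. Without the 7 cells of wild-type tamoxifen replicate 3, described below, the 46 others ran from 11 over 44 to 225 UMIs, or 0.453%, 1.49% and 3.75%. The 53 cells held 3302 of the 4536 Pomc UMIs of all kept cells (72.8%). At the limits of the rule, the lowest shares inside were 0.453% (35 of 7720 UMIs) and 0.467% (25 of 5352 UMIs), and the lowest count inside was 8 of 1130 UMIs (0.708%). Just outside lay neurons with 19 of 5089 (0.373%), 9 of 3788 (0.238%) and 7 of 989 (0.708%) UMIs. Only 8 neurons had 4 to 7 Pomc UMIs, so few cells lay near the limit. In barcodes of up to 100 genes, which hold mostly free RNA, Pomc made up 0 to 223 CPM (UMIs of a gene per 1000000 UMIs) per library, the highest in wild-type oil replicate 1, a level far below that of any cell inside the rule.

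Several libraries stood apart before any comparison. Wild-type tamoxifen replicates 4 and 5, Esr1 cKO oil replicate 4 and Esr1 cKO tamoxifen replicate 4 shared 386 cell barcodes among them, 295 of these in all 4, whereas the other 12 libraries shared 80. Cells with a shared barcode made up 7.46% to 11.2% of the kept cells of those 4 libraries. Of the Pomc neurons, 6 carried a shared barcode. One barcode was a Pomc neuron in all 4 libraries, with 76, 66, 63 and 48 Pomc UMIs and 74, 58, 56 and 39 Cartpt UMIs in wild-type tamoxifen replicates 4 and 5, Esr1 cKO oil replicate 4 and Esr1 cKO tamoxifen replicate 4. The other gave 19 and 20 Pomc UMIs in wild-type tamoxifen replicates 4 and 5, where it passed the rule, and 6 in each of both Esr1 cKO libraries, where it did not. The 53 cells therefore held 49 distinct barcodes, and 47 cells (16 wild-type, 31 Esr1 cKO) had a barcode of 1 library only. Esr1 cKO tamoxifen replicate 3, like wild-type oil replicate 3, was deposited with at least 100 genes per barcode, against 20 in the others.

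The 7 Pomc neurons of wild-type tamoxifen replicate 3 differed as a group from the rest. Tbx19, a T-box factor of pituitary corticotrophs, had 10 UMIs in 4 of these 7 cells and 1 UMI in the 46 others. The list of 14 pituitary genes had 15 UMIs in 5 of the 7 cells and 2 UMIs in 2 of the 46 others, with Tbx19 as its most abundant gene (11 of 17 UMIs). Its hormone genes Gh, Prl, Cga, Tshb, Lhb and Fshb were at 0, as were Pou1f1, Oacyl and Ghrhr. Summed over the list, wild-type tamoxifen replicate 3 had 913 CPM in its Pomc neurons, against a median of 0 over the libraries, and all Pomc neurons together had 85.6 against 72.5 in the other neurons. Tnnt1, a troponin subunit, had 13 UMIs in 5 of the 7 cells and 9 UMIs in 4 of the others. Conversely, Tbx3, an arcuate transcription factor, was at 0 in the 7 cells and detected in 30 of the 46 others, and Cartpt had 2 UMIs there and 2406 in the others. These 2 UMIs lay in 1 cell of 816 UMIs, which also held 4 Gad2 UMIs and 1 Gal UMI and none of Tbx19, Tnnt1 or the pituitary list. The same 7 cells had the highest astrocyte (304 CPM), endothelial (670) and microglial (304) list sums of any library. They are called Pomc neurons here by the rule alone. Shares of neurons and permutation tests of single genes between groups are also given without them. For Pomc over all neurons, the range without 1 library each is given.

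Cartpt divided the Pomc neurons. It was detected in 30 of 53 cells (56.6%, 95% Clopper-Pearson interval 42.3% to 70.2%, which like the other intervals covers counting error only), against 11.8% of the other neurons and 0.533% of cells without a detected neuronal gene. At least 10 Cartpt UMIs were found in 20 cells, with a median of 78 and a highest count of 584, and 1 to 9 UMIs in 10 cells. The cells with at least 10 Cartpt UMIs had a median of 78.5 Pomc UMIs, 1.95% of the cell, and of 4612 UMIs in all. The cells below had medians of 24 Pomc UMIs, 1.09% and 2373 UMIs. Cells high in Cartpt were thus both richer in Pomc and deeper, as the plot of both genes by cell shows. None of the Cartpt cells carried a UMI of Tbx19 or Tnnt1.

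**Figure D1:**
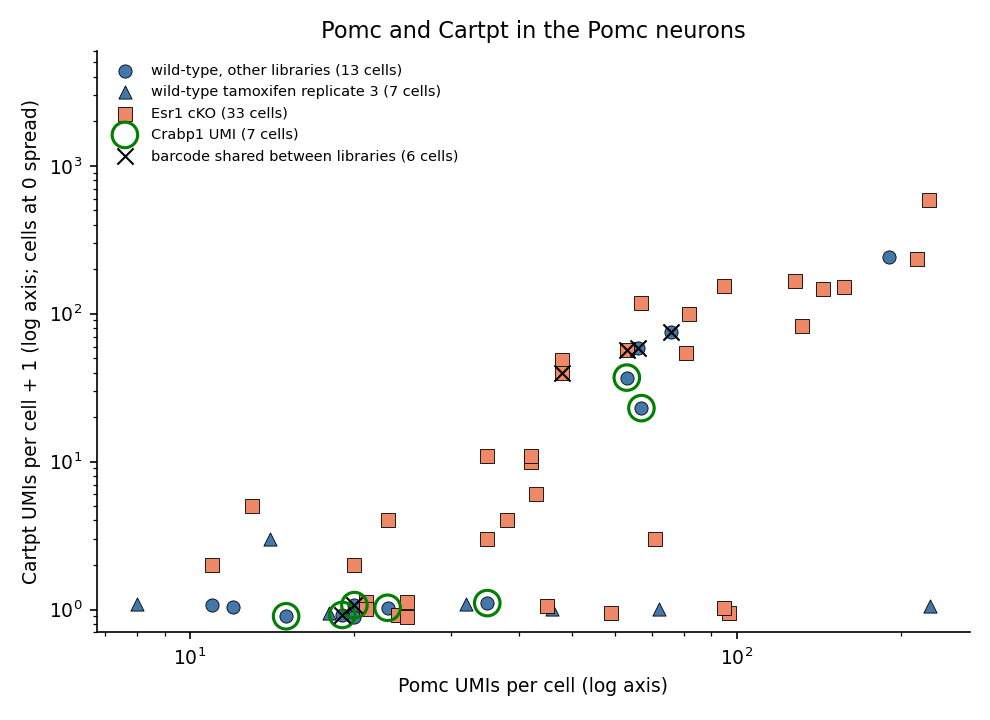
Pomc UMIs (x, log axis) and Cartpt UMIs plus 1 (y, log axis, cells at 0 spread for display) in each of the 53 Pomc neurons. Circles and triangles are wild-type cells, triangles those of wild-type tamoxifen replicate 3, squares Esr1 cKO cells, green rings the 7 cells with a Crabp1 UMI and crosses the 6 cells with a barcode shared between libraries; 20 cells have at least 10 Cartpt UMIs, and 6 of the 7 triangles have none.

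Crabp1 marked few of the cells. It was found in 7 Pomc neurons (13.2%, interval 5.48% to 25.3%), with 31 UMIs, against 1.51% of the other neurons. Only 2 of the 7 also held Cartpt, and 3 held Esr1. Gad2, the GABA-synthesizing enzyme, was found in 29 Pomc neurons (54.7%), 22 of them with Cartpt, whereas Slc17a6, the vesicular glutamate transporter 2, was found in 5 (9.43%) and Slc32a1, the vesicular GABA transporter, in 2 (3.77%). A single cell held both Gad2 and Slc17a6. The neuropeptide gene Gal was found in 18 cells with 118 UMIs and Sst in 6 cells with 20 UMIs.

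Because Pomc neurons were deeper than other cells, detection was compared after thinning each cell to 1000 UMIs. This left 48 Pomc neurons (5 left out), 6870 other neurons (2756 left out), 176 Tac2 neurons, described below, and 4577 cells without neuronal genes. Tbx3 was then found in 27.1% of the Pomc neurons (56.6% before thinning), 3.33% of the other neurons and 4.85% of the cells without neuronal genes. Six6, a homeobox factor of the hypothalamus, stood at 16.7%, 3.09% and 0.0874% in the same order. Npy1r, a receptor of neuropeptide Y, stood at 14.6%, 1.65% and 0.896%. For Six6 and Npy1r the cells without neuronal genes gave a low level, whereas they held Tbx3 more often than the other neurons did and are no background for it. Gad2 was found in 31.3% of the thinned Pomc neurons and 28.4% of the other neurons, and the interval of the first (18.7% to 46.3%) holds the second. Slc17a6 stood at 4.17% against 12.2%, with an interval up to 14.3%. Pcsk2, a convertase that acts on pro-opiomelanocortin, was found in 33.3% against 16.8% and Pcsk1, the other convertase, in 4.17% against 4.41%.

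Receptors by which Pomc neurons are known to sense energy state were scarce at this depth. Before thinning, Lepr, the leptin receptor, was found in 1 of 53 cells (1.89%, interval 0.0478% to 10.1%), against 1.40% of the other neurons and 0.560% of cells without neuronal genes. Insr, the insulin receptor, was found in 6 cells (11.3%) against 8.52% of the other neurons, Htr2c, a serotonin receptor, in 8 (15.1%) against 11.1%, and Glp1r in 4 (7.55%) against 4.93%. After thinning, Lepr stood at 0% against 0.611%, Insr at 4.17% against 4.29%, Htr2c at 2.08% against 6.61% and Glp1r at 2.08% against 2.49%, so that the shares of all 4 turned below those of the other neurons. For these 4 genes no difference from the other neurons was detectable at this depth. Mc3r had UMIs in 2 cells. Mc4r and Npy had none in 53 cells, which allows up to 5.66% of cells with a UMI (3 cells of 53) and sets no limit on cells that express them. Npy is compared with the other neurons below. Irs4, an insulin receptor substrate, was found in 24 cells (45.3%, or 18.8% after thinning against 4.67%). Without the 7 cells of wild-type tamoxifen replicate 3, and before thinning, Tbx3 was found in 30 of 46 cells (65.2%), Gad2 in 28 (60.9%), Irs4 in 24 (52.2%) and Lepr in 1 (2.17%).

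**Figure D2:**
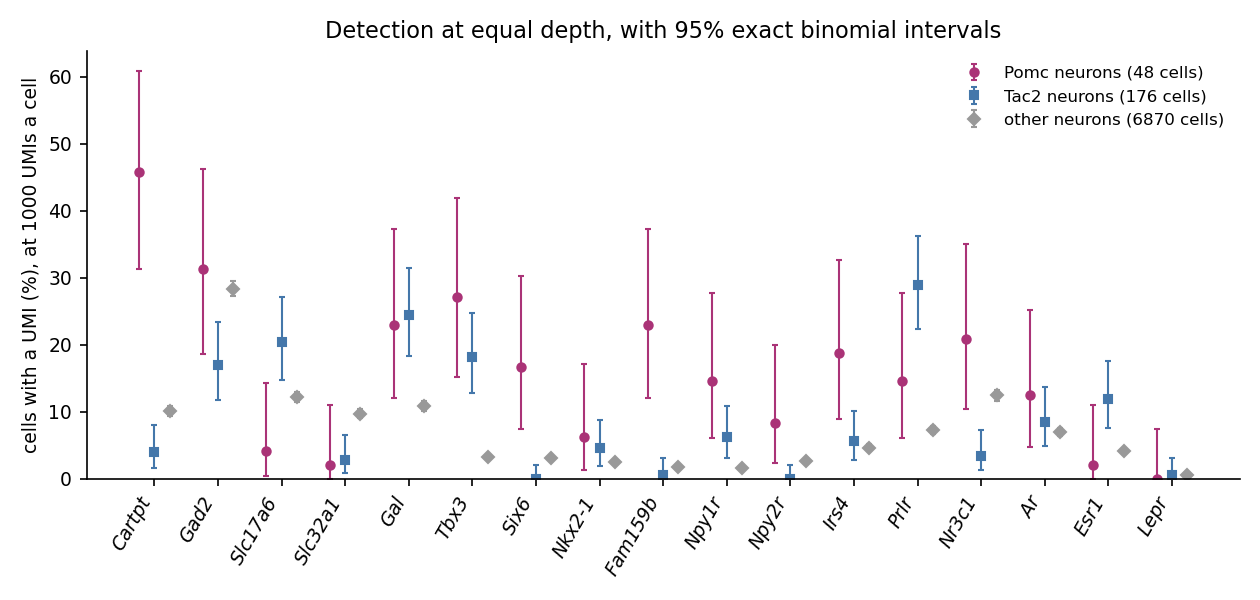
Percent of cells with at least 1 UMI of each gene (y) after every cell was thinned to 1000 UMIs, for 48 Pomc neurons, 176 Tac2 neurons and 6870 other neurons; bars are 95% exact binomial intervals, which cover counting error only. Tbx3, Six6, Npy1r and Irs4 lie higher in Pomc neurons than in other neurons, while the intervals of Gad2 and Lepr hold the other neurons' shares.

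To ask what else sets Pomc neurons apart, UMIs were summed per library over the Pomc neurons and over all other neurons and compared with edgeR's quasi-likelihood test, with the library as a block and Benjamini-Hochberg adjustment, in the 9 libraries with at least 3 Pomc neurons. Levels are in CPM, given as mean ± SD over these libraries. The p-values measure the spread between these mice. Of 4548 genes tested, 411 differed at an adjusted p under 0.05 (9.04%), 51 higher (1.12%) and 360 lower (7.92%) in Pomc neurons, and the median over all genes was -0.27 on the log2 scale. Wild-type mice gave 4 of the libraries and Esr1 cKO mice 5. In the wild-type libraries alone 2 of 1043 genes were called, both lower, and in the Esr1 cKO libraries alone 298 of 3376, 102 of them higher. Without the Pomc neurons with a UMI of the pituitary list, 332 of 3604 were called in 6 libraries, 119 of them higher; of 57 named genes called, 10 then lost their call and 6 were not tested. With size factors in place of TMM the median was -0.12 and 109 of 354 calls were higher (30.8% against 12.4% here), so the balance of directions depended on the scaling. A gene was tested with at least 10 UMIs observed or expected in the Pomc neurons. Of the genes tested, 688 had under 10 observed and entered through the other neurons, so that they could only be low, and made up 189 of the 360 lower genes. Another 625 had under 10 expected and entered through the Pomc neurons, so that they could only be high, and made up 24 of the 51 higher genes. The 3235 genes with at least 10 of both gave 27 higher and 171 lower. Tbx3, Six6, Npy1r, Npy2r, Npy5r, Rnf128, Fam159b, Plagl1, Rel, Tbx19 and Tnnt1, described below, entered through the Pomc neurons, and each kept its call when no filter was applied. Of the same 57 named genes, 39 kept their call with DESeq2 and 18 did not: Hcrt, Gnrh1, Vgf, Chga, Thra, Kcnma1, Slc2a1, Dusp1, Fos, Tbx19, Gja1, Pmch, Rprm, Atp5d, Atp5f1, mt-Cytb, Ldhb and Aldoa. In simulated counts of this comparison, 22.4%, 77.6% and 90.9% of genes changed by 1, 2 and 3 on the log2 scale were recovered. The simulation gave all genes the same spread and let libraries differ in depth only. Whether that matches the spread of these data was not tested, so these shares may overstate the recovery here.

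Tbx3 and Six6, transcription factors of the arcuate lineage, were higher in Pomc neurons. Of 9 factors tested from a list of 30, 3 were higher and 2 lower, but the side from which each entered fixed its direction: none of the 3 with at least 10 UMIs both observed and expected was called. Tbx3 had a lowest, median and highest level of 0, 324 and 521 in the Pomc neurons of the 9 libraries and of 24.1, 44.9 and 77.1 in the other neurons. Only the library at 0, wild-type tamoxifen replicate 3, overlapped the other neurons. Tbx3 was 2.31 ± 0.322 (log2, SE) higher (294 ± 185 against 50.9 ± 19.3, adjusted p = 2.06e-10 by edgeR, higher in 8 of 9 libraries). Six6 had levels of 0, 183 and 309 against 19.0, 35.4 and 55.8, and was 2.23 ± 0.415 higher (adjusted p = 6.73e-06 by edgeR, 7 of 9 libraries). Nkx2-1, whose transgene drove the Cre, had 74.0 ± 72.1 against 31.8 ± 8.35 and did not pass the test (1.11 ± 0.538, adjusted p = 0.195 by edgeR). Nr2f2 and Dlx1, the 2 lower factors of the same list, had no UMI in these Pomc neurons. They were at least 7.52-fold and at least 4.22-fold lower, each bound set by 3 UMIs over the Pomc neurons.

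Of the energy-sensing and melanocortin receptor list, 9 of 39 genes were tested and 4 were higher and 2 lower. The receptors of neuropeptide Y, the peptide that Agrp neurons release, made up 3 of the 4, and all 3 entered through the Pomc neurons, so the count is no evidence on the list. Npy2r had levels of 0, 180 and 370 in Pomc neurons against 13.6, 29.6 and 61.7 in the other neurons, with the 2 libraries at 0 below the other neurons and the other 7 above. It was 2.15 ± 0.426 higher (adjusted p = 3.52e-05 by edgeR). Npy5r was 2.34 ± 0.65 higher (adjusted p = 0.00776 by edgeR, 7 of 9 libraries) and Npy1r 2.03 ± 0.505 higher (adjusted p = 0.002 by edgeR, in 5 of 9 libraries, the other 4 being at 0). Irs4 completed the group, at 246 ± 176 against 60.1 ± 13.3 (1.60 ± 0.349, adjusted p = 0.000251 by edgeR). Bdnf, a neurotrophin gene on the same list, had 1 UMI in Pomc neurons, 8.53% of the 11.7 expected from the other neurons (exact Poisson interval 0.216% to 47.5%). Among the nuclear receptors, 1 of 3 tested was lower: Thra, a thyroid hormone receptor, at 140 ± 77.2 against 241 ± 28.1 (-1.07, adjusted p = 0.0235 by edgeR). This call was lost with size factors (adjusted p = 0.0537) and without any 1 of Esr1 cKO tamoxifen replicates 1 and 3 and wild-type tamoxifen replicates 1 and 5 (adjusted p 0.0519 to 0.0628).

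Of 14 genes tested of the dense-core granule, in which prohormones are processed, 1 was higher and 1 lower, with a median of -0.01. Among all genes 1.12% were higher and 7.92% lower. With size factors 2 granule genes were higher and 0 lower, and with DESeq2 0 were called. Vgf, a granin-like precursor, had levels of 0, 416 and 829 against 65.4, 146 and 233 and was 1.02 ± 0.281 higher (adjusted p = 0.00723 by edgeR, 6 of 9 libraries; 0.122 with DESeq2, 0.0539 without Esr1 cKO oil replicate 1 and 0.0674 without Esr1 cKO tamoxifen replicate 3). Chga, chromogranin A, was lower with wide overlap between libraries (-0.79 ± 0.269, 276 ± 274 against 398 ± 94.6, adjusted p = 0.0393 by edgeR), and this call was lost with DESeq2 (adjusted p = 0.252), with size factors (0.118), in cells of unshared barcode (0.127) and without any 1 of 7 of the 9 libraries, up to 0.218 without Esr1 cKO tamoxifen replicate 3.

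Peptide precursors of other hypothalamic neurons were tested for 16 of 36 genes on the list, and 13 were lower and none higher. This count is no evidence on the list, since 12 of the 13 had under 10 UMIs in the Pomc neurons and were tested through their level in the other neurons. Npy had no UMI in these Pomc neurons and 70.9 to 764 CPM in the other neurons, and was at least 15.7-fold lower. Hcrt (orexin) was at least 9.90-fold, Tac1 (substance P) at least 9.29-fold, Gnrh1 at least 8.69-fold, Nts (neurotensin) at least 6.34-fold and Vip at least 5.54-fold lower, all at 0 in Pomc neurons. Summed over their lists, genes of the lateral hypothalamus and magnocellular neurons made up 90.6 CPM in all Pomc neurons against 4671 in the other neurons, genes of Tac2 and kisspeptin neurons 106 against 537, and those of Agrp neurons (Agrp, which the rule used, and Npy) 0 against 223. DESeq2 did not call Hcrt (adjusted p = 0.42) and Gnrh1 (0.802). Nor did it call Pmch, given below, whose value turned sign there. Avp, the vasopressin precursor, had 4 UMIs in 2 libraries, 25.2 ± 51.0 against 2740 ± 1580 (-7.17 ± 0.394, adjusted p = 5.33e-70 by edgeR). Tac2 (neurokinin B) had 1 UMI, 0.887% of the 113 expected (interval 0.0225% to 4.94%), Oxt (oxytocin) 3 UMIs, 1.70% of 177 expected (0.350% to 4.96%), and Pmch 1 UMI, 7.42% of 13.5 expected (0.188% to 41.3%), the last a call lost without Esr1 cKO tamoxifen replicate 3 (adjusted p = 0.0508 by edgeR).

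Of 7 transmitter genes tested, 4 were lower and none higher, and all 4 were tested through their level in the other neurons, with under 10 UMIs in the Pomc neurons. Slc17a6 had 3 UMIs in the Pomc neurons of these libraries, 9.11% of the 32.9 expected from the other neurons (interval 1.88% to 26.6%), with 0, 0 and 60.9 CPM as lowest, median and highest level against 155, 175 and 304. Slc32a1 had 1 UMI, 5.78% of 17.3 expected (0.146% to 32.2%), and Ddc, an enzyme of monoamine synthesis, 1 UMI, 8.22% of 12.2 expected (0.208% to 45.8%). Low Slc17a6 and low Slc32a1 stood beside Gad2, which did not pass the test.

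Genes of excitability and metabolism that were called were lower, as were 7.92% of all genes. Of 7 tested genes for glucose sensing and potassium channels 3 were lower: Kcnd2, a subunit of A-type channels (79.6 ± 101 against 272 ± 85.3, -1.80, adjusted p = 0.000102 by edgeR), Kcnma1, the BK channel (-1.14, adjusted p = 0.0274 by edgeR), and Slc2a1, a glucose transporter (-2.10, adjusted p = 0.0211 by edgeR). Slc2a1 had 4 UMIs in the Pomc neurons and entered through the other neurons, so that it could only be low. Kcnma1 was lost without any 1 of wild-type tamoxifen replicates 1, 3 and 5 and Esr1 cKO tamoxifen replicates 3 and 4 (adjusted p 0.057 to 0.138), and Slc2a1 without Esr1 cKO tamoxifen replicate 3 (0.089). Of 76 nuclear genes of oxidative phosphorylation 2 were lower, the ATP synthase subunits Atp5d (-0.98) and Atp5f1 (-0.93), and none higher, with a median of -0.28 that lay at the median of all genes (-0.27). Of 9 mitochondrially encoded genes 1 was lower, mt-Cytb (-0.59), and of 16 glycolysis genes 3 were lower, Aldoa (-0.75), Ldhb (-0.78) and, with the largest difference of the 3, Aldoc, an aldolase abundant in astrocytes (-1.999 ± 0.367, adjusted p = 5.27e-06 by edgeR, lower in 9 of 9 libraries). Of 6 estrogen target genes tested, 1 was higher, Irs4, and 1 lower, Rprm (-1.85, adjusted p = 0.0284 by edgeR), which had 5 UMIs in the Pomc neurons and likewise could only be low. Apart from Aldoc and Irs4, the genes named in the last 3 sentences lost their call without 1 library or more (highest adjusted p 0.146 for Atp5d without Esr1 cKO oil replicate 3, 0.0537 for Atp5f1 and 0.0552 for Aldoa without Esr1 cKO tamoxifen replicate 4, 0.154 for Ldhb, 0.198 for mt-Cytb and 0.102 for Rprm without wild-type oil replicate 1).

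Immediate early genes, which dissociation can also induce, gave 3 lower of 15 tested, against 7.92% of all genes: Dusp1 (-1.21, adjusted p = 0.0159 by edgeR), Fos (-0.713, adjusted p = 0.0209) and Klf2 (-2.15, adjusted p = 0.00177). Klf2 had 6 UMIs in the Pomc neurons and entered through the other neurons, so that it could only be low. Fos had levels of 0, 443 and 3045 in Pomc neurons against 719, 909 and 1185, so that its mean (905) was below its SD and close to the mean of the other neurons (959). It was lower in 7 of 9 libraries, by less in the means than in the fit. Dusp1 was lost without Esr1 cKO oil replicate 1 or 3 or Esr1 cKO tamoxifen replicate 3 (adjusted p 0.0526 to 0.0658), and Fos without any 1 of 7 of the 9 libraries (up to 0.101, without Esr1 cKO tamoxifen replicate 3). Without wild-type tamoxifen replicate 3, 9 of these genes were lower, against 401 of 4121 among all genes. Of 79 ribosomal protein genes tested, 8 were higher and none lower, against 1.12% higher among all genes, and 71 had no call. Their median was 0.40. Rps6 had levels of 426, 797 and 1494 against 272, 334 and 440 (0.906 ± 0.219, adjusted p = 0.00132 by edgeR), and Rps28 (0.848) and Rpl26 (0.682) were also higher in 9 of 9 libraries, though Rpl26 was lost without Esr1 cKO tamoxifen replicate 3 (adjusted p = 0.0615). The count of ribosomal genes was 37 with size factors (109 of 4548 among all genes) and 20 without wild-type tamoxifen replicate 3 (79 of 4121). Ribosomal genes have many near-identical copies, and how the counting treated them is not given in the sources used here.

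Rnf128, an E3 ubiquitin ligase, and Tmem176b were picked among genes called with the same direction in each library. That they were higher in 9 of 9 libraries is thus no further support. Rnf128 ran from 122 over 409 to 974 CPM in the Pomc neurons and from 29.7 over 50.4 to 59.9 in the other neurons, without overlap. It was 2.68 ± 0.299 higher (adjusted p = 1.42e-16 by edgeR). Rnf128 entered through the Pomc neurons, so that it could only be high. Tmem176b was also higher in each of the 9 libraries (88.5, 213 and 309 against 62.5, 78.0 and 124, 1.04 ± 0.336, adjusted p = 0.0282 by edgeR; 0.133 without Esr1 cKO oil replicate 3 and 0.0905 without Esr1 cKO tamoxifen replicate 3). Other genes were chosen after their values were seen and are given with no p, and all but Rel were higher in 8 of the 9 libraries. Fam159b stood at 360 ± 237 against 21.5 (3.74 ± 0.375), and Plagl1, an imprinted zinc finger factor, at 359 against 38.4 (2.88 ± 0.318). Asb4, an ankyrin repeat and SOCS box protein, was 2.13 ± 0.291 higher and Cited1, a transcriptional coregulator, 1.88 ± 0.288 higher. Rel, a subunit of NF-kappa B, was at 186 against 7.76 and higher in 6 of 9 libraries (4.29 ± 0.497).

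Transcripts of glia, vessels and blood summed to less per list in Pomc neurons than in the other neurons, and these sums were not tested. Rgs5, a pericyte gene, was at 27.2 ± 61.8 against 256 ± 144 (-3.49) and Hbb-bs, a beta globin, at 61.5 ± 90.7 against 634 ± 587 (-4.03). Ly6c1, an endothelial gene, had 2 UMIs, 5.68% of 35.2 expected (0.688% to 20.5%), and Gja1, an astrocyte connexin, 3 UMIs, 23.1% of that expected (4.76% to 67.4%; adjusted p = 0.018 by edgeR, 0.0524 without Esr1 cKO oil replicate 1). Mgp, Gkn3 and Acta2, genes of vascular cells, had no UMI in these libraries and were at least 8.21-fold, 7.62-fold and 4.83-fold lower. Summed over each list and all cells, astrocyte genes made up 50.3 CPM in Pomc neurons and 286 in the other neurons. The sums were 85.6 against 588 for endothelial cells, 50.3 against 437 for mural cells, 45.3 against 191 for microglia and 151 against 1132 for red blood cells. They were 20.1 against 165 for oligodendrocyte precursors, 5.03 against 270 for ependymal cells, 25.2 against 140 for fibroblasts, and 136 against 240 for tanycytes, of which Rax was at 0. For oligodendrocytes the sums were 252 against 1935. The genes called on the astrocyte (2), endothelial (3), mural (2), fibroblast (1) and red blood cell (4) lists all had under 10 UMIs in the Pomc neurons. They entered through the other neurons, so that they could only be low, as did 3 of the 4 oligodendrocyte genes called. No gene was tested on the oligodendrocyte precursor, microglia and ependymal lists, and 0 of 2 tanycyte genes were called. The part of these transcripts in the other differences was not tested. The pituitary list was the exception, since Tbx19 was higher (2.12, adjusted p = 0.043 by edgeR, in 2 of 9 libraries; 0.0844 without Esr1 cKO oil replicate 1), as was Tnnt1 (3.74, adjusted p = 4.6e-07, in 3 of 9), and both had too few UMIs for a test without wild-type tamoxifen replicate 3.

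**Figure D3:**
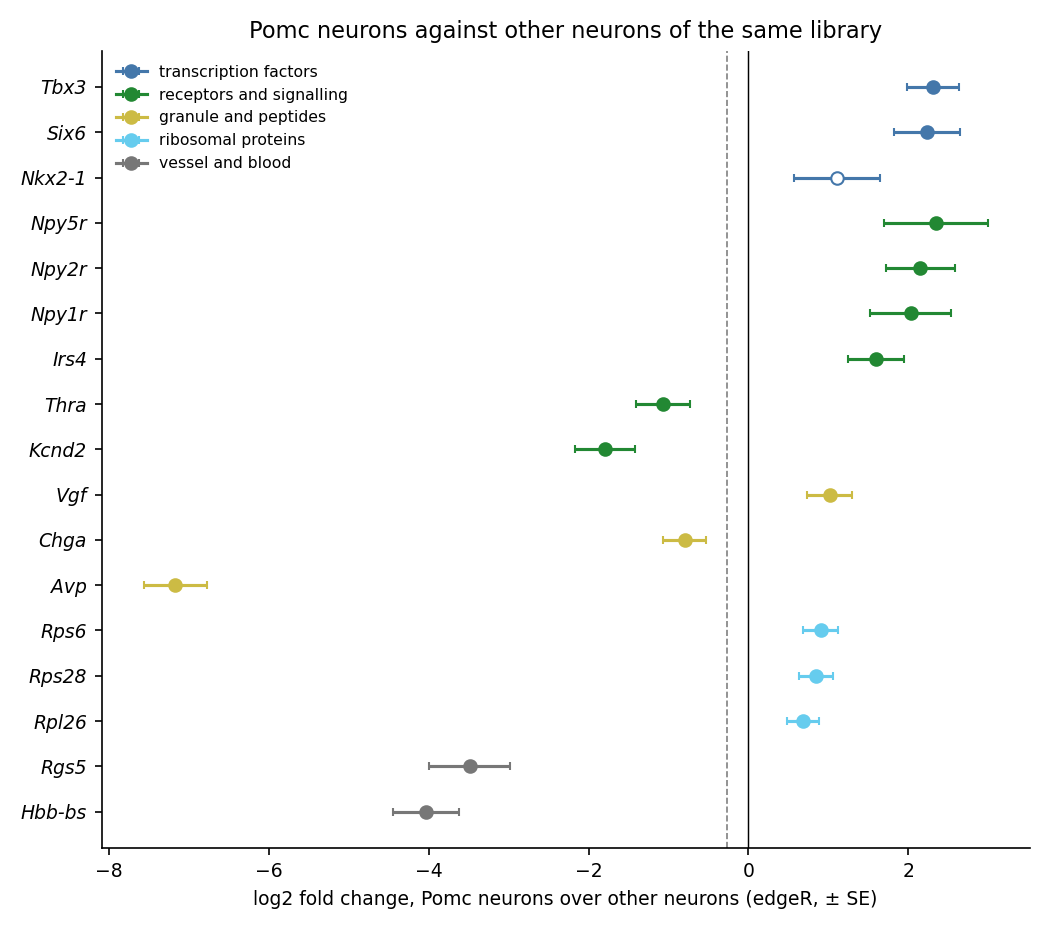
Log2 fold change of Pomc neurons over the other neurons of the same library (x, edgeR, bars ± SE, 9 libraries) for genes grouped by role (y). Filled points passed an adjusted p of 0.05 and the open point (Nkx2-1) did not; the dashed line is the median of all genes tested (-0.27); receptors of neuropeptide Y and Irs4 lie right of 0 and vascular and blood genes left of it.

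Tac2 neurons are another arcuate type, many of which co-release kisspeptin and dynorphin. They were neurons with at least 4 UMIs of Tac2, making up at least 0.2% of UMIs, and numbered 192. Compared in the 9 libraries with at least 3 cells of each type, 146 of 4478 genes differed (3.26%), 45 higher (1.0%) and 101 lower (2.26%) in Pomc neurons, with a median over all genes of -0.20. Of the lower genes, 57 had under 10 UMIs in the Pomc neurons and entered through the Tac2 neurons, and of the higher genes 29 had under 10 expected and entered through the Pomc neurons. The 3099 genes with at least 10 of both gave 16 higher and 44 lower. Among all genes, 64 were higher and 79 lower with size factors, and 43 higher and 23 lower with DESeq2. The balance of directions thus depended on the processing. Of the genes named below, Bdnf, Fndc9, Kiss1, Nr4a2, Nr5a2, Nts, Slc17a6, Tac1 and Trpc5 entered through the Tac2 neurons, and Fam159b, Ier2, Junb and Rnf128 through the Pomc neurons. Of these 13, Junb alone lost its call when no filter was applied (adjusted p = 0.257 by edgeR). Esr1 and Tacr3 also entered through the Tac2 neurons, and Six3, Six6, Isl1, Nr3c1, Npy2r and Irs4 through the Pomc neurons. For these the calls with no filter are not given. Of 33 named genes called, DESeq2 kept 14, gave no adjusted p for 10 and did not call Gad2, Chga, Bdnf, Kcnma1, Nr4a2, Ier2, Junb, Btg2 and Atp5b (adjusted p 0.0946 to 0.785). These libraries pool 4 wild-type and 5 Esr1 cKO mice, and in the wild-type libraries alone 6 genes were called. As markers, Cartpt (9567 against 112 CPM) and Crabp1 (284 against 2.11) were not counted as evidence.

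Of 9 lineage factors tested, 3 were higher and 2 lower in Pomc neurons. The 3 higher ones, Six3, Six6 and Isl1, entered through the Pomc neurons and had no adjusted p with DESeq2, and of the 3 factors with at least 10 UMIs both observed and expected 1 was lower. Six3 was present in each of the 9 libraries, at 60.9, 112 and 320 CPM as lowest, median and highest level, while Tac2 neurons had 3 UMIs in all, 3.39% of the 88.5 expected at the Pomc neurons' level (interval 0.699% to 9.91%). Six6 had 34 UMIs in Pomc neurons and 2 in Tac2 neurons, 1.99% of those expected (0.241% to 7.18%). Isl1, a LIM factor that acts on Pomc in development, was at 157 ± 134 against 13.98 ± 32.1 (3.15 ± 0.681, adjusted p = 0.00039 by edgeR). Nr5a2, a nuclear receptor, had 1 UMI in Pomc neurons, 3.69% of the 27.1 expected (0.0934% to 20.6%). Rnf128 was again higher in 9 of 9 libraries (2.89 ± 0.426, adjusted p = 7.61e-09 by edgeR). So was 4930447C04Rik (1.84 ± 0.463, adjusted p = 0.00466 by edgeR, and 0.078 without Esr1 cKO tamoxifen replicate 3). Both were picked among genes called with the same direction in every library, so 9 of 9 is no further support. Fam159b had 67 UMIs in Pomc neurons and 1 in Tac2 neurons, 0.391% of the 256 expected (0.0099% to 2.18%), and Fndc9 had none in Pomc neurons, at least 8.19-fold lower. Tbx3 (294 ± 185 against 234 ± 131) and Nkx2-1 (74.0 ± 72.1 against 63.0 ± 56.7) did not pass the test. Both comparisons share the Pomc neurons, so their results are not independent.

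Of the hormone receptors called, Prlr alone had at least 10 UMIs both observed and expected. Esr1 and Tacr3, with under 10 UMIs in the Pomc neurons, could only be low, and Nr3c1, Npy2r and Irs4, with under 10 expected, could only be high, so that their directions were fixed by the filter. Esr1 was at 0, 0 and 427 CPM (lowest, median and highest) in Pomc neurons, with UMIs in 4 of 9 libraries, and at 57.1, 192 and 527 in Tac2 neurons. It was lower (-2.11 ± 0.545, 78.1 ± 143 against 231 ± 180, adjusted p = 0.00674 by edgeR) and lower in each of the 9 libraries. Esr1 is the gene deleted in the Esr1 cKO mice, which gave 5 of the 9 libraries: in the 4 wild-type libraries alone the value was -1.17 (adjusted p = 0.704 by edgeR), and without the 4 libraries of shared barcodes -1.79 (0.0726). Prlr, the prolactin receptor, was at 92.3 ± 44.4 against 402 ± 216 (-2.26 ± 0.405, adjusted p = 5.42e-06 by edgeR). Nr3c1, the glucocorticoid receptor, was higher in Pomc neurons, at 215 ± 187 against 27.4 ± 32.8 (2.22 ± 0.525, adjusted p = 0.00181 by edgeR; 0.0524 without Esr1 cKO tamoxifen replicate 4). Npy2r had 34 UMIs in Pomc neurons and 2 in Tac2 neurons (1.64% of those expected, 0.199% to 5.93%), Irs4 was 2.21 ± 0.4926 higher (adjusted p = 0.00071), and Tacr3, the neurokinin B receptor, had 3 UMIs, 16.6% of 18.1 expected (3.42% to 48.5%). The Tacr3 call was lost with size factors (adjusted p = 0.0574), without shared barcodes (0.0526) and without any 1 of 7 of the 9 libraries (up to 0.25, without Esr1 cKO oil replicate 1).

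Peptides, transmitters and channels differed between both types as well. Pdyn, the dynorphin precursor, was at 103 ± 91.5 against 667 ± 388 (-3.16 ± 0.382, adjusted p = 1.85e-13 by edgeR). Kiss1, Nts and Tac1 had no UMI in Pomc neurons of these libraries (at least 3.38-fold, 11.1-fold and 3.43-fold lower). These 3 genes were lower in only 6, 5 and 3 of the 9 libraries. Their median and highest levels in Tac2 neurons were 45.7 and 157 CPM, 11.4 and 551, and 0 and 664. Without shared barcodes Kiss1 and Tac1 were not tested. Gad2 was 1.34 ± 0.312 higher (569 ± 265 against 240 ± 239, adjusted p = 0.00154 by edgeR; 0.0883 without shared barcodes), and Slc17a6 had 3 UMIs, 6.5% of 46.2 expected (1.34% to 19.0%). The convertase Pcsk1 was lower in Pomc neurons (164 ± 130 against 563 ± 408, -2.27 ± 0.357, adjusted p = 7.66e-08 by edgeR), as were the granins Chga (-1.52, adjusted p = 0.000145; 0.23, adjusted p = 0.959, in wild-type libraries alone) and Chgb (-1.24, adjusted p = 0.000105), which made 3 of 14 granule genes lower, against 2.26% of all genes. Of 5 channel and glucose-sensing genes tested, 3 were lower: Kcnd2 (-2.002), Kcnma1 (-1.80) and Trpc5, with 1 UMI of 12.9 expected (7.74%, 0.196% to 43.1%). Kcnma1 was lost without Esr1 cKO tamoxifen replicate 3 (adjusted p = 0.0871) or wild-type tamoxifen replicate 5 (0.071), and Trpc5 without any 1 of 5 Esr1 cKO libraries (0.0662 to 0.124). Bdnf had 1 UMI of 56.7 expected (1.76%, 0.0447% to 9.83%).

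Calls of immediate early genes rested in part on 1 library. Of 15 tested, 7 were higher and 1 lower, against 1.0% higher and 2.26% lower among all genes. Without wild-type tamoxifen replicate 3 the counts were 2 higher and 1 lower (42 and 107 among all genes). With DESeq2 they were 1 higher and 0 lower (43 and 23 among all genes). Ier2 (2.79, adjusted p = 0.000296 by edgeR), Junb (1.65, adjusted p = 0.0263) and Btg2 (1.64, adjusted p = 0.0122) had highest levels of 1705, 1888 and 4019 against medians of 107, 88.5 and 107, and without wild-type tamoxifen replicate 3 their adjusted p was 0.0532, 0.488 and 0.664. Junb was also lost without Esr1 cKO oil replicate 3 (0.112) or Esr1 cKO tamoxifen replicate 4 (0.241), and Btg2 without Esr1 cKO oil replicate 3 (0.14). Nr4a2 was the lower one, with 2 UMIs of 27.1 expected (7.38%, 0.894% to 26.7%). With edgeR and TMM in all libraries, ribosomal (79), glycolysis (16) and mitochondrially encoded (9) genes gave no call. Ribosomal genes gave 8 higher with size factors, 15 with DESeq2 and 5 without wild-type tamoxifen replicate 3, against 64, 43 and 42 among all genes. Without that library 2 glycolysis genes were lower, against 107 among all genes. Of 76 nuclear genes of oxidative phosphorylation 2 were lower, Atp5b (-0.87) and Ndufa4 (-0.79), a share near the 2.26% of all genes that were lower. Neither of them passed without Esr1 cKO tamoxifen replicate 4 (adjusted p = 0.151 and 0.158 by edgeR).

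Agrp neurons, the melanocortin counterpart, were few: 15 cells had at least 8 UMIs and 0.4% of UMIs of Agrp. Only 2 libraries, Esr1 cKO tamoxifen replicates 1 and 3, held at least 3 of each type, so this comparison says nothing of wild-type or oil-treated mice. Of 1496 genes tested 11 differed (0.735%), 4 higher (0.267%) and 7 lower (0.468%) in Pomc neurons, and DESeq2 called 0. Npy, which Agrp neurons co-release, had no UMI in the Pomc neurons and 18410 and 19990 CPM in the Agrp neurons of both libraries, at least 347-fold lower. Otp, a homeobox factor of neuroendocrine lineages, was at 0 against 446 and 719, at least 10.6-fold lower. Gal was at 433 and 2346 CPM in Pomc neurons and had 2 UMIs in Agrp neurons, 4.11% of the 48.7 expected (0.498% to 14.8%). Nov, a matricellular protein, was at 341 and 469 with 0 UMIs in Agrp neurons, at least 4.43-fold higher in Pomc neurons, and Rnf128 was at 469 and 605 with 2 UMIs in Agrp neurons, 11.1% of 18.0 expected (1.34% to 40.1%). Fos (-1.84 ± 0.513, adjusted p = 0.0462 by edgeR), Rgs2 (-2.65), Arhgap6 (-3.09) and Cplx2 (-3.02) were lower, and Btg2 had 3 UMIs of 31.3 expected (9.59%, 1.98% to 28.03%). Npy, Otp and Btg2 had under 10 UMIs in the Pomc neurons and entered through the Agrp neurons, so that they could only be low. Nov, Gal and Rnf128 entered through the Pomc neurons, so that they could only be high. Tbx3 (389 ± 91.8 against 205 ± 105 CPM) and Six6 (184 ± 45.9 against 182 ± 20.2) did not pass the test, which says little, since in simulated counts of this comparison 0% of genes changed by 1, 2 or 3 on the log2 scale were recovered.

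The study asked whether tamoxifen acts on the brain and whether estrogen receptor alpha is needed, so the Pomc neurons were next compared between groups. As a share of neurons they made up 0.855%, 0% and 0% in wild-type oil replicates 1 to 3 and 0.332%, 0.343%, 1.12%, 0.249% and 0.547% in wild-type tamoxifen replicates 1 to 5. They made up 1.12%, 0.243%, 0.725% and 0.175% in Esr1 cKO oil replicates 1 to 4 and 0.997%, 0.403%, 0.612% and 0.823% in Esr1 cKO tamoxifen replicates 1 to 4. The groups overlapped throughout. Tamoxifen against oil gave 0.518% ± 0.352 (n = 5) against 0.285% ± 0.4935 (n = 3) in wild-type mice (exact permutation test, two-sided, p = 0.464, smallest possible p 0.0357). In Esr1 cKO mice it gave 0.709% ± 0.258 (n = 4) against 0.566% ± 0.444 (n = 4; exact permutation p = 0.6, smallest possible 0.0286). Esr1 cKO against wild-type mice gave 0.638% ± 0.345 against 0.430% ± 0.394 (n = 8 each, exact permutation p = 0.275, smallest possible 0.000155). Adjusted over these 3 tests, p was 0.6 for each. In successive fours of library numbers, each with 2 libraries of either genotype, the Esr1 cKO mean was above the wild-type mean in all 4 (1.06% against 0.593%, 0.323% against 0.172%, 0.668% against 0.558% and 0.499% against 0.398%). With labels permuted within the fours, the exact permutation p was 0.238 for the genotype (smallest possible 0.00154). Single libraries moved these differences. That of 0.233 percentage points in wild-type mice was 0.0829 without wild-type tamoxifen replicate 3 (0.368% ± 0.127, n = 4), 0.518 without wild-type oil replicate 1 and 0.0902 without wild-type oil replicate 2 or 3. That of 0.143 in Esr1 cKO mice was 0.0122 to 0.328 without 1 library, the first without Esr1 cKO oil replicate 4 and the last without Esr1 cKO oil replicate 1. That of 0.207 between genotypes was 0.305 without wild-type tamoxifen replicate 3 (exact permutation p = 0.0936) and 0.138 without Esr1 cKO oil replicate 1.

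Pomc summed over all neurons does not depend on the limit per cell. It was at 109, 24.5 and 24.5 CPM in the wild-type oil libraries, at 114, 191, 309, 76.5 and 98.3 in the wild-type tamoxifen libraries, at 570, 34.6, 192 and 52.0 in the Esr1 cKO oil libraries, and at 261, 67.9, 218 and 201 in the Esr1 cKO tamoxifen libraries. In such sums fewer Pomc neurons and less Pomc per neuron cannot be told apart. Outside the Pomc neurons the 4 group means were 13.9 to 23.2. Tamoxifen against oil gave 1.69 ± 0.776 (log2, SE) in wild-type mice and -0.20 ± 0.665 in Esr1 cKO mice, the interaction was -1.89 ± 1.01, and Esr1 cKO against wild-type gave 1.27 ± 0.506. The adjusted p by edgeR was 0.991 for the interaction and 1 for the others, over 19704 genes of which 0 (0%), 0, 0 and 3 (0.0152%) were called. Unadjusted, p by edgeR was 0.0417 for tamoxifen in wild-type mice, 0.769 for tamoxifen in the Esr1 cKO mice, 0.0773 for the interaction and 0.0213 for the genotype. Pomc passed none of these tests after adjustment over all genes. Tamoxifen against oil in wild-type mice ranged from 1.32 to 2.66 without 1 library each. The highest level entering it, 309 CPM, came from wild-type tamoxifen replicate 3. The plot of shares and levels by library shows both measures side by side.

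**Figure D4:**
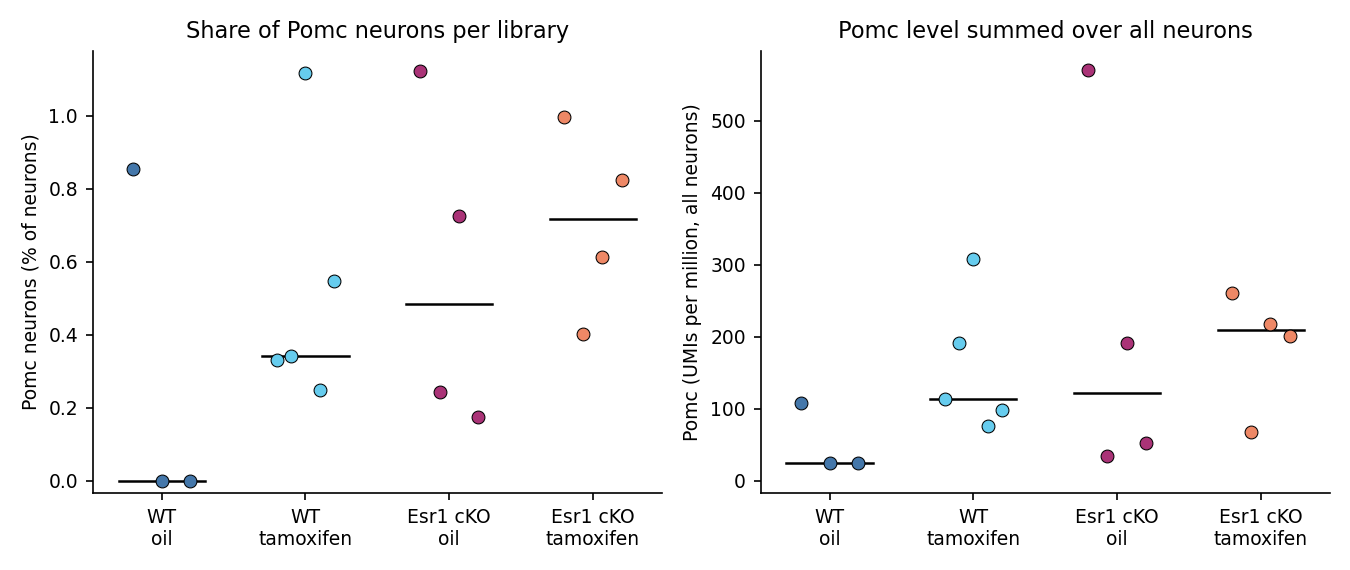
Pomc neurons as a percent of neurons (left) and Pomc CPM over all neurons (right) for each of the 16 libraries by group; lines are group medians. The single wild-type oil library with Pomc neurons (0.855%) and Esr1 cKO oil replicate 1 (570 CPM) stand highest in their groups, and all groups overlap.

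Within the Pomc neurons, the effect of tamoxifen could be tested in libraries with at least 5 Pomc neurons only in Esr1 cKO mice. There 0 of 3017 genes (0%) passed edgeR's test, 96 had an unadjusted p under 0.05, and DESeq2 called 0 with 2 such genes. The libraries compared were Esr1 cKO oil replicates 1 and 3 and Esr1 cKO tamoxifen replicates 1 and 3. Leaving out any 1 of them leaves 1 library in a group, so the counts of such fits are not read. With libraries of at least 3 Pomc neurons all groups entered, but with 1, 3, 2 and 3 libraries for wild-type oil, wild-type tamoxifen, Esr1 cKO oil and Esr1 cKO tamoxifen. The lone wild-type oil library, of 3 cells, was then assumed to vary like the others. Of 3862 genes edgeR called 1 for tamoxifen in wild-type mice (0.0259%), 0 in Esr1 cKO mice (0%; 86 unadjusted), 2 for the interaction (0.0518%) and 3 for the genotype (0.0777%), and DESeq2 called 0 in each. With successive fours of library numbers as a block, these counts were 0, 0, 0 and 4. In simulated counts of the comparison within Esr1 cKO mice at 5 cells, 0%, 20.9% and 50.0% of genes changed by 1, 2 and 3 on the log2 scale were recovered, so only large differences could be seen.

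Among Pomc neurons, Crabp1 was found only in those of wild-type mice, in 5 of the 6 wild-type libraries that held any Pomc neuron. It was at 1328 CPM in wild-type oil replicate 1, at 960, 106, 0, 492 and 267 in wild-type tamoxifen replicates 1 to 5, and at 0 in all 8 Esr1 cKO libraries. Wild-type tamoxifen replicate 3 alone overlapped the Esr1 cKO libraries. In cells, 7 of 20 wild-type Pomc neurons held it (35%, interval 15.4% to 59.2%) and 0 of 33 Esr1 cKO Pomc neurons, which allows up to 9.09% of cells with a UMI (3 of 33). At the wild-type rate 68.2 UMIs would have been expected in the Esr1 cKO cells, so the level there was at least 22.7-fold lower by counting alone. Wild-type oil replicate 1 gave 15 of the 31 wild-type UMIs, 14 of them in 1 cell, and without it 43.0 UMIs were expected and the bound was 14.3-fold. Over mice the exact permutation test gave p = 0.00599 (526 ± 520 in 6 libraries against 0 in 8), and edgeR an adjusted p of 1.5e-07 for the genotype. DESeq2 did not call Crabp1 for the genotype, either with at least 3 or with at least 1 Pomc neuron per library. In the other neurons 1.48% of wild-type and 1.54% of Esr1 cKO cells held Crabp1.

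The cells behind the Crabp1 difference were few and not all separate. Without shared barcodes it was found in 5 of 16 wild-type cells (25 UMIs, 3 of 5 libraries) and 0 of 31 Esr1 cKO cells, and the exact permutation p was 0.0909. It was 0.00155 without wild-type tamoxifen replicate 3, 0.0485 without both, and 0.0794 in the tamoxifen libraries alone. The shared barcode with 19 and 20 Pomc UMIs in wild-type tamoxifen replicates 4 and 5 held 4 and 2 Crabp1 UMIs there, and 3 and 2 in Esr1 cKO oil and tamoxifen replicates 4, where its 6 Pomc UMIs kept it outside the rule. Without wild-type tamoxifen replicate 1 the adjusted p by edgeR was 0.066. The gene was chosen as a marker with these data in view, and 3 genes were tested over mice in this way.

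Cartpt and Esr1, the others, did not pass that test. Cartpt was at 0 CPM in wild-type oil replicate 1, at 6189, 25505, 122, 9110 and 7751 in wild-type tamoxifen replicates 1 to 5, at 40246, 346, 5478 and 13501 in Esr1 cKO oil replicates 1 to 4 and at 6774, 0, 15930 and 3608 in Esr1 cKO tamoxifen replicates 1 to 4. The genotypes overlapped, with 8113 ± 9349 in wild-type and 10735 ± 13217 in Esr1 cKO libraries (exact permutation p = 0.73, and 0.929 without wild-type tamoxifen replicate 3). By cells, 6 of 20 wild-type (30%, 11.9% to 54.3%) and 24 of 33 Esr1 cKO Pomc neurons (72.7%, 54.5% to 86.7%) held Cartpt, but 7 of the wild-type cells came from wild-type tamoxifen replicate 3. edgeR called Cartpt for the genotype (adjusted p = 2.12e-06) and the interaction (adjusted p = 0.00736), both of which rest on the 3 cells at 0 of wild-type oil replicate 1, so that the fitted values are no bound and are not read as folds. The interaction was lost without Esr1 cKO tamoxifen replicate 1 (adjusted p = 0.102) or Esr1 cKO oil replicate 1 (0.261). With at least 1 Pomc neuron per library and without shared barcodes the genotype's adjusted p was 0.86.

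Esr1 itself had 8 UMIs in 6 of 20 wild-type Pomc neurons (30%, 11.9% to 54.3%) and 2 UMIs in 2 of 33 Esr1 cKO Pomc neurons (6.06%, 0.743% to 20.2%). The level over libraries was 129 ± 161 against 28.1 ± 65.5 (exact permutation p = 0.158, and 0.182 without wild-type tamoxifen replicate 3). In the other neurons 9.36% of wild-type and 7.78% of Esr1 cKO cells held a UMI. Drop-seq counts transcripts at their 3′ end and does not read the floxed part, so these counts do not check the deletion. Esr1 lies on chromosome 10 (4611593 to 5005614, plus strand, GRCm38).

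**Figure D5:**
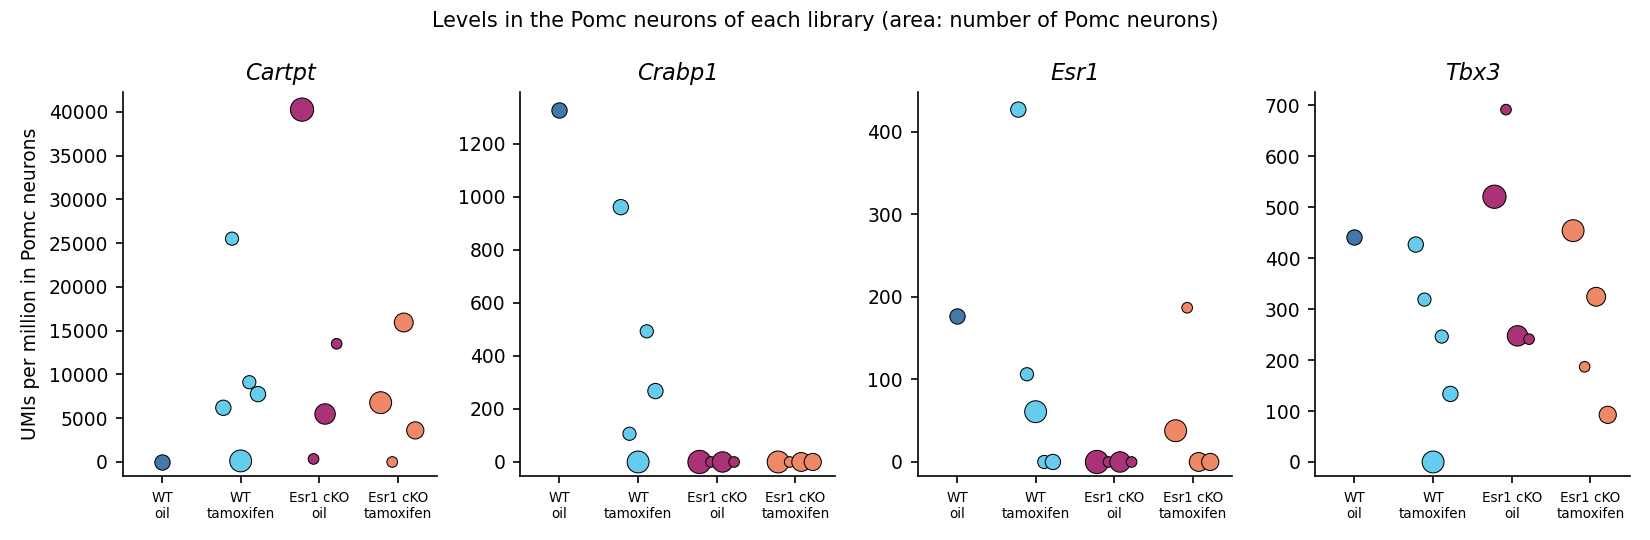
CPM (y) of Cartpt, Crabp1, Esr1 and Tbx3 in the Pomc neurons of each of the 14 libraries that held any, by group; the area of a point grows with the number of Pomc neurons (1 to 8). Crabp1 is at 0 in all 8 Esr1 cKO libraries and above 0 in 5 of 6 wild-type libraries, while the other genes overlap between groups.

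The remaining calls, of genes chosen after their values were seen, were Mt1 and Pcp4. Mt1, a metallothionein, was at 88.5 CPM in wild-type oil replicate 1 and at 0, 0, 9194, 123 and 267 in wild-type tamoxifen replicates 1 to 5. In Esr1 cKO oil replicates it was at 0, 0, 681 and 0 and in Esr1 cKO tamoxifen replicates at 75.7, 0, 144 and 1018. The call for tamoxifen in wild-type mice (5.47 ± 1.12, adjusted p = 0.00393 by edgeR) rested on the 151 UMIs in 6 of the 7 cells of wild-type tamoxifen replicate 3, without which the value was 0.22 (adjusted p = 0.989). It was also lost without Esr1 cKO oil replicate 3 (adjusted p = 0.0585). Pcp4, which encodes a calmodulin-binding peptide, was at 2302 in wild-type oil replicate 1 and 1707, 850, 183, 492 and 267 in wild-type tamoxifen replicates 1 to 5. It was at 74.4, 346, 217 and 0 in Esr1 cKO oil replicates 1 to 4 and at 114, 0, 396 and 92.5 in Esr1 cKO tamoxifen replicates 1 to 4, so that the genotypes overlapped. DESeq2 called Pcp4 for the genotype with at least 1 Pomc neuron per library, but not with at least 3, the setting of the values that follow. Pcp4 was lower in Esr1 cKO mice (-2.45 ± 0.4934, adjusted p = 0.000905 by edgeR), and kept this call without wild-type tamoxifen replicate 3 (adjusted p = 3.46e-06) and without shared barcodes (adjusted p = 0.000222), but not without wild-type tamoxifen replicate 1 (0.414) or Esr1 cKO oil replicate 1 (0.0932), and DESeq2 did not call it (0.999).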

How the data were processed

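Single-cell suspensions of 16 hypothalami (1 mouse per library) were sequenced by Drop-seq. The authors deposited 1 matrix of UMI counts per library (genes by barcodes, not normalized). STAR 2.6, Seurat and the mm10 build are named in the submitters' processing notes; the counting program and gene annotation are not given in the sources used here. The study's methods spread the mice over 4 days, with every group handled side by side, but the labels give no day. Replicate numbers were given in accession order, so equal numbers in different groups fall in the same set among the successive fours of library numbers. Whether the mice of such a set were handled together is not known. Cells were selected by the rule stated in the report, with no doublet caller; cells with at least 3 UMIs of 1 list of another cell type were left out as an alternative. UMI counts were summed per library and cell type, genes with at least 10 UMIs observed or expected in the Pomc neurons were kept, and sums were compared with edgeR 4.0.16 (glmQLFit, TMM, Benjamini-Hochberg adjusted p under 0.05) in R 4.3.3; DESeq2 1.42.0 was an alternative, and an adjusted p that it left undefined stayed undefined. Contrasts within Pomc neurons were planned with at least 5 of them per library and, where that left no fit, made with at least 3. Single values were compared by exact permutation (scipy 1.17.1). A bound for a gene at 0 sets 3 counts in place of 0. The scripts were tested on simulated data, with the same spread for all genes and libraries that differed in depth only. The shares recovered hold for that setting. The members, gene lists and tests were chosen with earlier results of these data known. Genes named were those called with the same direction in every library, the leading genes of each list, and genes said to be chosen after their values were seen. Some listed genes are not reported here. Positions come from GENCODE vM21 (GRCm38).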

Additional observations from a re-analysis of the deposited data

Results flagged for a closer look

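Over all neurons, Crabp1 stood at 108.7 CPM in Esr1 cKO oil replicate 3, apart from the other libraries of its group. It was the only one of 16 groups and measures tested in which 1 library stood apart, and chance gives about 1 in 20.

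Within Pomc neurons the interaction of tamoxifen and genotype passed edgeR's test for Cartpt (-10.6 on the log2 scale, adjusted p = 0.00736 by edgeR) and Mt1 (-5.79, adjusted p = 0.0172 by edgeR). In both, wild-type oil is 1 library of 3 cells, so a difference in the effect of tamoxifen between genotypes is not shown, and with successive fours of library numbers as a block 0 genes were called. The Cartpt value rests on the 3 Pomc neurons of wild-type oil replicate 1, all without a Cartpt UMI, and is no bound. It was lost without Esr1 cKO tamoxifen replicate 1 (adjusted p = 0.102) or Esr1 cKO oil replicate 1 (0.261). The Mt1 value was -0.56 without wild-type tamoxifen replicate 3 and 0.0649 without Esr1 cKO oil replicate 3, and DESeq2 called neither gene.

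Outside the neurons, 6 cells passed both Pomc limits with fewer than 3 neuronal genes detected. Pomc made up 0.803% to 11.3% of their UMIs. They lay in wild-type oil replicates 1 and 2, wild-type tamoxifen replicates 3 and 4 and Esr1 cKO tamoxifen replicates 2 and 3, and 4 of them held Cartpt (4 to 50 UMIs).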

How the results depend on the processing

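Both the counts of genes and the balance of their directions changed with the processing. Of the calls against the other neurons, 12.4% were higher in the main fit, 2.63% with filterByExpr and 40.2% with DESeq2. Against the other neurons, 411 genes became 214 with DESeq2, 1157 with no filter, 1822 with filterByExpr, 257 with at least 16 Pomc UMIs per cell, 144 with at least 5 Pomc neurons per library, 995 with at least 1, 2 in wild-type libraries alone, 262 without the 4 libraries of shared barcodes and 258 to 480 without 1 library each (258 without Esr1 cKO oil replicate 3). Against Tac2 neurons, 146 became 66 with DESeq2, 81 with filterByExpr, 83 without those 4 libraries, 6 in wild-type libraries alone and 82 to 149 without 1 library each (82 without Esr1 cKO tamoxifen replicate 3, 96 without Esr1 cKO oil replicate 3). Against Agrp neurons, 11 became 0 with DESeq2 or filterByExpr and 4 with no filter or at least 16 Agrp UMIs, and no library could be left out.

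Within Pomc neurons, tamoxifen in Esr1 cKO mice gave 0 genes, 1 without mixed cells and 0 to 25 without 1 library each (25 without Esr1 cKO tamoxifen replicate 1). In wild-type mice 1 gene became 2 with size factors or no filter, 0 with DESeq2, filterByExpr, 1 genotype alone, the block below or at least 1 Pomc neuron per library, and 0 to 2 without 1 library. For the interaction 2 became 0 with DESeq2, filterByExpr or the block, 1 with no filter, without mixed cells or with at least 1 Pomc neuron per library (0 there without shared barcodes), and 0 to 4 without 1 library. For the genotype 3 became 0 with DESeq2 or filterByExpr, 5 without shared barcodes, 1 with at least 1 Pomc neuron and either no shared barcodes or DESeq2, and 2 to 5 without 1 library.

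The share of neurons in Esr1 cKO mice turned to -0.0259 percentage points without the 4 libraries of shared barcodes. Pomc over all neurons turned sign outside the Pomc neurons, to -0.22 (wild-type) and 0.74 (Esr1 cKO) for tamoxifen, 0.97 for the interaction and -0.12 for the genotype. In Esr1 cKO mice it also turned to 1.05 and 0.07 without Esr1 cKO oil replicate 1 and tamoxifen replicate 2 (range -0.51 to 1.05), 0.11 without wild-type oil and Esr1 cKO tamoxifen replicates 2 together and 0.33 with the block. Of 110 results for named genes, 106 kept their sign in every setting. Chga against Tac2 neurons turned to 0.2327 in wild-type libraries alone, Pmch to 0.22 with DESeq2, Mt1 in wild-type mice to -3.86, -0.11 and -3.45 in settings without wild-type tamoxifen replicate 3, and its interaction to 0.0649 without Esr1 cKO oil replicate 3 (range -7.06 to 0.0649), 0.48 with the block, and 3.67, 0.0196 and 3.32 in settings without wild-type tamoxifen replicate 3. The causes were not tested.

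No paired analysis was possible because the labels give no replicate numbers, so which mice belong together is not known. The numbers used here follow accession order, and equal numbers fall in the same set among the successive fours of library numbers. The 4 libraries of shared barcodes make up the last of these sets. Successive fours of library numbers served as a block in an alternative, under which tamoxifen changed the share of neurons by 0.312 percentage points in wild-type mice (3 fours) and 0.143 in Esr1 cKO mice (4 fours), where an exact permutation test could give no p below 0.25 and 0.125. The mice were handled over 4 days that the labels do not give; each of the first 3 fours holds 1 library of every group and the last no wild-type oil library, and whether such a set is a day is not known. In simulated counts with at least 1 Pomc neuron per library, 0%, 11.9% and 53.0% of genes changed between genotypes by 1, 2 and 3 on the log2 scale were recovered, so smaller differences could not be seen at this depth.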
